A study of Mus musculus with 3 samples.

Results

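Cells of the adventitia, the connective tissue sheath around the mouse aorta, were compared between animals given angiotensin II with voluntary wheel running (AngII_VWR) and animals given saline (Vehicle). All barcodes of these 2 libraries with at least 500 UMIs (molecules counted once each), at least 300 genes and at most 10% mitochondrial UMIs were taken, 19019 in AngII_VWR and 13861 in Vehicle, or 32880 of the 42779 barcodes that the same limits left in the whole series. The labels named 3 mice for each group but only 1 library for them. How the mice were combined, their strain, age and sex, and the dose and duration of the hormone or of running were not given in the sources used here. The 2 groups differed both in the hormone and in access to a wheel, so what belongs to the one and what to the other cannot be told apart in this comparison. The library of angiotensin II without running (AngII, 9899 barcodes) is given beside the results as a further level. The comparison of AngII with Vehicle would share its control with the one described here, so the AngII values are set side by side and support nothing. The question was what remained different from saline in animals that ran while receiving the hormone.

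Angiotensin II is a peptide hormone that constricts vessels and, when infused over time, raises blood pressure and thickens the aortic wall with collagen. The adventitia holds fibroblasts, which make that collagen, and resident macrophages, which lie among them with nerves, lymphatics and mast cells. In the adventitia a progenitor-like fibroblast state marked by Pi16, Dpp4 and Cd55 is set against a matrix-producing state marked by periostin and Cthrc1, and resident macrophages marked by Lyve1, Timd4 and Cd163 against cells recruited from blood monocytes, marked by Ccr2.

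Barcodes fell into 3 gates by their share of UMIs, which were set by a few genes and not by clusters. The fibroblast gate took barcodes with at least 1% of UMIs from Col1a1, Col1a2, Dcn and Lum, and the macrophage gate those with at least 0.3% from the complement genes C1qa, C1qb and C1qc. Barcodes past both limits were set apart, and all others were the remaining cells. The libraries differed in depth, with a median of 10174 UMIs per barcode in Vehicle, 13460 UMIs in AngII and 4638 UMIs in AngII_VWR. The labels gave 10000 cells as the load of each library, below the number of barcodes kept in either library compared. Kept barcodes held 161715666 UMIs in Vehicle and 104226280 in AngII_VWR. Haemoglobin made up 1.44% of UMIs in Vehicle and 0.106% in AngII_VWR, and the counting software was version 7.0.1 in Vehicle and 7.1.0 in AngII_VWR. Vehicle and AngII_VWR shared 72 barcode sequences (0.519% of Vehicle barcodes), of which 37 lay in the same gate in both. With 1 library a group there was no replicate and no test. All intervals are 95% intervals for counting error alone, and none covers the difference between mice or between preparations.

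Of the kept barcodes, 68.0% (67.3 to 68.7%) lay in the fibroblast gate in AngII_VWR and 53.6% (52.8 to 54.4%) in Vehicle, a ratio of 1.27 (1.23 to 1.31), beside 66.6% in AngII. The macrophage gate held 18.2% in AngII_VWR and 20.2% in Vehicle, a ratio of 0.903 (0.858 to 0.949), beside 20.9% in AngII. The remaining cells made up 10.99% in AngII_VWR and 24.9% in Vehicle, a ratio of 0.441 (0.417 to 0.465), beside 10.9% in AngII. Shares of barcodes sum to a whole, so a lower share of one gate raises the others, and 9.84% of the fibroblast gate in Vehicle and 4.55% in AngII_VWR had less than 1.2% of UMIs from its genes, just above the limit of 1%. The median share of UMIs from these genes within the gate was 2.43% in AngII_VWR and 2.09% in Vehicle. With halved limits the gate held 69.7% in AngII_VWR and 61.4% in Vehicle, and with doubled limits 46.1 and 28.9%. The gate share thus also reflects the level of these genes per barcode. Barcodes past both limits, which can be pairs of cells, made up 2.82% in AngII_VWR, 1.29% in Vehicle and 1.59% in AngII.

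Among the remaining cells, barcodes were sorted by small sets of marker genes. Most of these cells in the 2 libraries compared fell in no class, 1140 (54.5%) in AngII_VWR and 1998 (57.8%) in Vehicle, beside 525 (48.5%) in AngII. Such barcodes made up 5.99% of all kept barcodes in AngII_VWR and 14.4% in Vehicle, a ratio of 0.416 (0.386 to 0.447). The lower share of the remaining cells thus lay largely in barcodes without a class. Barcodes with smooth muscle markers, from the layer under the adventitia, numbered 32 (0.168%) in AngII_VWR and 311 (2.24%) in Vehicle, a 13.3-fold lower share, and 11 (0.111%) in AngII. Neutrophil-marker barcodes stood the other way, with 165 (0.868%) in AngII_VWR, 16 (0.115%) in Vehicle and 11 (0.111%) in AngII, a share 7.52 times that of Vehicle (4.49 to 13.5). Dendritic-marker barcodes numbered 71 in AngII_VWR, 17 in Vehicle and 48 in AngII, a ratio of AngII_VWR over Vehicle shares of 3.04 (1.77 to 5.51), and B-marker barcodes 26, 61 and 19, a ratio of 0.311. For blood endothelial (51, 40 and 127 barcodes in the same order), Schwann (30, 26 and 23), innate lymphoid type 2 (58, 31 and 27) and mast cell markers (13, 12 and 5) the interval of that ratio included 1. Blood endothelial-marker barcodes thus stood near Vehicle with running and were most frequent in AngII, at 1.28% of its barcodes. Erythroid-marker barcodes numbered 37 in AngII_VWR, 206 in Vehicle and 16 in AngII. The neutrophil ratio was 2.61 among barcodes with at least 2000 UMIs and 1000 genes, from 52 and 15 barcodes, and the median of neutrophil-marker barcodes was 1762 UMIs in AngII_VWR and 5106 in Vehicle.

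**Figure D1:**
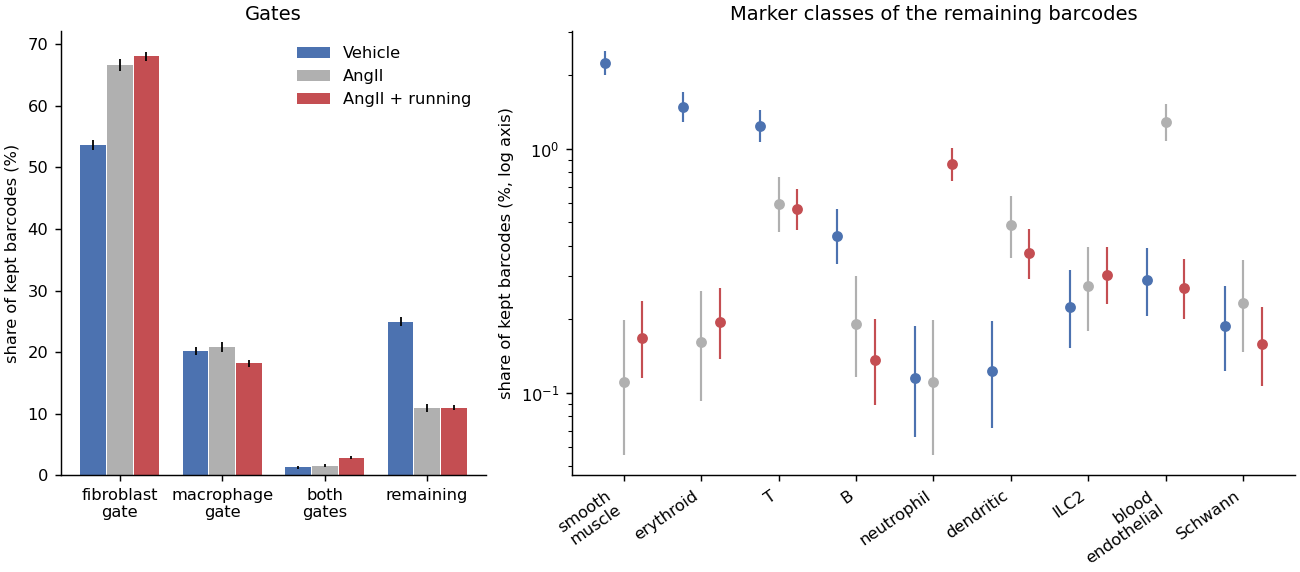
Share of kept barcodes (%) per gate, as bars with 95% Clopper-Pearson intervals, and per marker class of the remaining cells on a log axis, in Vehicle, AngII and AngII with running. The fibroblast gate stands at 53.6, 66.6 and 68.0%, and smooth muscle-marker barcodes at 2.24, 0.111 and 0.168%.

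The fibroblast gate held fibroblast markers that the rule did not use. Levels are UMIs of a gene per 1000000 UMIs of the gate in that library (CPM). Collagen III (Col3a1), both PDGF receptors, Fbln1, Mfap5 and Serpinf1 together reached 12307 CPM in AngII_VWR against 10509 CPM in Vehicle and 15117 CPM in AngII, and none was at 0. A gene was counted as measured with at least 5 CPM in either library and at least 10 UMIs over both, and ratios are log2 ratios of CPM + 1. Of 10682 genes measured there, 446 (4.18%) exceeded their Vehicle level at least 2-fold in AngII_VWR and 251 (2.35%) were lower by that factor. The median over all genes was 0.03 log2. At 1.5-fold, 9.93% were higher and 6.5% lower, the background for the counts of list members below. List members are counted as higher or lower at this 1.5-fold limit unless stated otherwise.

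Genes of the progenitor-like state were lower in AngII_VWR, and close to their AngII levels. All 15 listed members were measured and lower than in Vehicle, 14 of them at least 1.5-fold, with a median log2 ratio of −1.54. Pi16, a secreted peptidase inhibitor that marks adventitial progenitors (ENSMUSG00000024011, mm10 chromosome 17, 29317680 to 29330593), stood at 4364 CPM in Vehicle, 1780 in AngII and 1503 CPM in AngII_VWR, 2.90-fold lower (2.88 to 2.92). Dpp4, the cell surface peptidase CD26, stood at 62.4, 22.5 and 14.9 CPM in the same order, 4.18-fold lower in AngII_VWR than in Vehicle. The complement inhibitor Cd55 stood at 421, 147 and 132 CPM, and the guidance ligand Sema3c at 439, 146 and 140 CPM. The running library was the lowest of the 3 for each of these 4 genes. With every barcode thinned to 1000 UMIs, a Pi16 UMI was found in 78.7% of fibroblast-gate barcodes of Vehicle, 58.9% of AngII and 56.7% of AngII_VWR. The macrophage gate, which should lack the gene, had 11.3, 4.41 and 11.1%. Before thinning, the fibroblast-gate shares were 94.3% in Vehicle and 83.2% in AngII_VWR, at median depths of 10433 and 4745 UMIs.

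Genes of matrix-producing fibroblasts were higher in AngII_VWR than in Vehicle, most of them below their AngII level. Of 15 measured members of the myofibroblast list, 9 were at least 1.5-fold higher and 2 lower, with a median of 1.35. Periostin (Postn), a matricellular protein of healing tissue, stood at 54.2 CPM in Vehicle, 509 in AngII and 259 CPM in AngII_VWR, 4.78-fold higher than in Vehicle. Cthrc1, a secreted protein of activated fibroblasts, stood at 19.8, 208 and 99.2 CPM, and tenascin C (Tnc) at 3.06, 73.8 and 19.7 CPM. For these 3 genes the running library lay between the other two. Thbs4, a thrombospondin of tendon and injured tissue, stood at 0.933 CPM in Vehicle, 97.3 in AngII and 14.8 CPM in AngII_VWR, 15.9-fold higher than in Vehicle. The 2 lower members were the contractile genes Acta2 (208, 74.7 and 111 CPM) and Tagln (134, 68.6 and 63.6 CPM), which smooth muscle also expresses. Smooth muscle markers in the fibroblast gate summed to 426 CPM in Vehicle, 207 in AngII and 250 CPM in AngII_VWR, and their part in those values was not tested.

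Collagen genes differed less. The fibrillar collagen and crosslinking list, in which Col1a1 and Col1a2 also belong to the gate, had 6 of 20 members at least 1.5-fold higher and 2 lower, with a median of 0.41. Its sum was 20311 CPM in Vehicle, 36710 in AngII and 26942 CPM in AngII_VWR. Col3a1 stood at 4104, 9001 and 7096 CPM, 1.73-fold higher than in Vehicle, and the crosslinking enzyme lysyl oxidase (Lox) at 158, 405 and 356 CPM, 2.25-fold higher. Pcolce, an enhancer of procollagen cleavage, was the lowest of the list, at 1680 CPM in Vehicle, 1439 in AngII and 870 CPM in AngII_VWR. Of 21 nonfibrillar collagen and matricellular genes 10 lay at least 1.5-fold above Vehicle and 1 below it, with Col6a3 at 207, 423 and 435 CPM and Ccn3 at 44.4, 191 and 107 CPM. The lower one was Ccn1, an early-response matricellular gene, at 999, 799 and 498 CPM. The elastic fibre list was not higher as a whole, with 1 of 16 members higher, 4 lower and a median of −0.26. Its main component elastin (Eln) stood at 670, 1095 and 929 CPM and fibrillin 1 (Fbn1) at 1352, 809 and 821 CPM.

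Matrix proteases and their inhibitors had 5 of 20 members higher and 5 lower, with a median of 0.07. Stromelysin 1 (Mmp3), which degrades proteoglycans and activates other proteases, was the highest in AngII_VWR, at 1358 CPM against 396 CPM in Vehicle and 454 CPM in AngII, 3.43-fold higher than in Vehicle. Gelatinase A (Mmp2) stood at 258 CPM in Vehicle, 599 in AngII and 414 CPM with running. The aggrecanase Adamts5 was lower, at 503, 226 and 211 CPM.

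The highest ratio among genes eligible for naming in the gate was that of Saa3 (ENSMUSG00000040026, chromosome 7, 46711998 to 46715700, minus strand), an acute-phase serum amyloid A protein. It stood at 0.376 CPM (0.259 to 0.528) in Vehicle, 52.1 CPM (50.6 to 53.6) in AngII and 184 CPM (181 to 187) in AngII_VWR, 489.9-fold higher than in Vehicle (349 to 712). Few barcodes carried it: after thinning, 1.37% of fibroblast-gate barcodes in AngII_VWR, 0.479% in AngII and 0.0715% in Vehicle had a Saa3 UMI. The macrophage gate had 0.999% in AngII_VWR, 0.538% in AngII and 0 of 2707 barcodes in Vehicle, which allows up to 0.111%, and the remaining cells 1.80, 0.498 and 0.0318%, so the share in the running library was of like size in all 3 gates. Without thinning, the fibroblast-gate shares were 4.24% in AngII_VWR and 0.336% in Vehicle. Chl1, an adhesion molecule of the neural L1 family, stood at 0.421, 26.1 and 80.3 CPM, 191-fold higher (138 to 271). It was found in 1.29% of thinned fibroblast-gate barcodes in AngII_VWR against 0.151% of the macrophage gate, and without thinning in 2.47% of the fibroblast gate there and 0.283% in Vehicle.

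Other genes with high ratios were Col8a1, a network-forming collagen of vessel walls (ENSMUSG00000068196, chromosome 16, 57624258 to 57754737), at 59.3 CPM in Vehicle, 578 in AngII and 354 CPM in AngII_VWR, 5.97-fold higher (5.79 to 6.15). Kcnma1, the pore of a calcium-activated potassium channel, stood at 13.5, 315 and 133 CPM. Igfbp3, which binds insulin-like growth factors, stood at 4.83, 66.8 and 54.5 CPM, and Piezo2, a mechanically gated channel, at 30.2, 208 and 162 CPM. These 4 genes were higher in AngII than in AngII_VWR. The other 4 genes named by the same rule had AngII levels nearer to Vehicle than to AngII_VWR. Pde4c, a cAMP phosphodiesterase, stood at 1.89, 6.10 and 63.6 CPM, Lsmem1 at 12.7, 19.7 and 134 CPM, Polg2, a subunit of the mitochondrial DNA polymerase, at 9.57, 9.78 and 90.6 CPM, and Ints6, of the Integrator complex that processes RNA, at 41.8, 47.3 and 217 CPM. Ints6 and Polg2 were also among the highest ratios of the macrophage gate, at 53.5, 45.7 and 261 CPM and at 14.0, 9.40 and 63.0 CPM. Pde4c and Lsmem1 stood there at 8.90, 3.52 and 34.2 CPM and at 16.6, 11.4 and 49.9 CPM. For these 4 genes the running library stood above both others in both gates, and its software version and depth also differed from both. The part of these in the values was not tested.

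**Figure D2:**
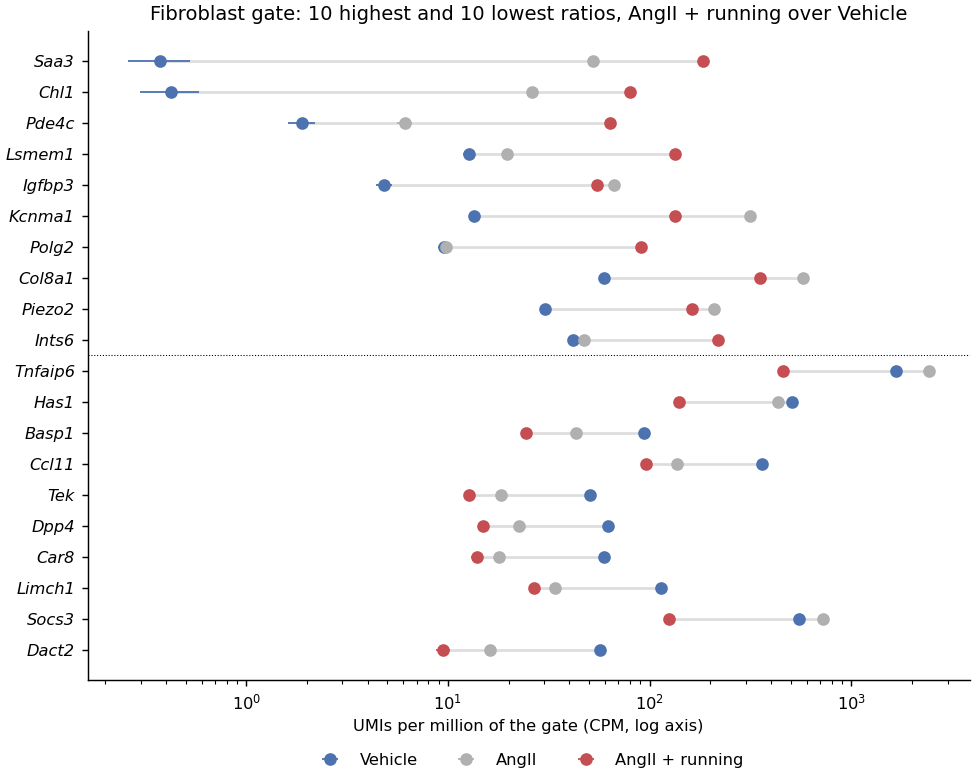
Levels in the fibroblast gate (CPM, log axis) of the 10 genes with the highest and the 10 with the lowest ratio of AngII with running over Vehicle, in the 3 libraries, with 95% Poisson intervals. Saa3 stands at 0.376, 52.1 and 184 CPM in Vehicle, AngII and AngII with running, and Tnfaip6 at 1656, 2430 and 460 CPM.

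The lowest ratios in the fibroblast gate included the hyaluronan genes Has1 and Tnfaip6 and the signalling inhibitor Socs3. Dact2, an inhibitor of Wnt and TGF-beta signalling, stood at 56.6 CPM in Vehicle, 16.1 in AngII and 9.45 CPM in AngII_VWR, 5.99-fold lower (5.53 to 6.50). Limch1 (113, 33.9 and 26.6 CPM), Car8 (59.3, 17.8 and 13.9 CPM), the angiopoietin receptor Tek (50.7, 18.3 and 12.8 CPM), Basp1 (93.6, 43.0 and 24.5 CPM) and the eosinophil attractant Ccl11 (360, 137 and 96.2 CPM) showed the same order of libraries, with AngII between the other two and nearer to AngII_VWR. For another group AngII stood nearer to Vehicle, or above it, and the running library alone was low. Socs3, an inhibitor of cytokine receptor signalling, stood at 549 CPM in Vehicle, 726 in AngII and 125 CPM in AngII_VWR, 4.39-fold lower than in Vehicle (4.29 to 4.49). Tnfaip6, which crosslinks hyaluronan, stood at 1656, 2430 and 460 CPM, 3.60-fold lower (3.56 to 3.65), and the hyaluronan synthase Has1 at 507, 434 and 139 CPM. The proteoglycan and hyaluronan list was not lower as a whole, with 1 of 15 members at least 1.5-fold above Vehicle, 4 below it and a median of 0.04. The proteoglycan genes Dcn and Lum also set the gate, so their levels in it are not independent of the rule.

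Cytokine and chemokine genes of the fibroblast gate were split, with 9 of the 25 measured at least 1.5-fold higher, 8 lower and a median of −0.24, which became 0.03 when scaled without mitochondrial, ribosomal and haemoglobin genes. Of its 4 most abundant members in Vehicle, Cxcl1, Ccl2 and Ccl7 were lower and Cxcl12 higher. Interleukin 6 (Il6) stood at 165 CPM in Vehicle, 613 in AngII and 81.4 CPM in AngII_VWR, 2.03-fold lower than in Vehicle. Cxcl1, which attracts neutrophils, stood at 694, 1166 and 253 CPM, 2.75-fold lower, and the monocyte attractants Ccl2 at 549, 402 and 157 CPM, 3.49-fold lower, and Ccl7 at 507, 563 and 147 CPM. Each of these stood below Vehicle in the running library. Cxcl12, which holds leukocytes in tissue, was higher, at 399, 315 and 565 CPM, and Il33, an alarmin, differed little, at 199, 189 and 168 CPM. Acute-phase and complement genes had 6 of 14 members higher and 2 lower. Haptoglobin (Hp) stood at 18.8, 109 and 43.7 CPM, and the pentraxin Ptx3 was lower, at 70.2, 157 and 20.6 CPM. Genes of antigen presentation by MHC class II were higher in 7 of 7 measured cases, but at low levels, with a sum of 147 CPM in Vehicle, 348 in AngII and 470 CPM in AngII_VWR. Macrophage markers in the gate summed to 40.5, 47.3 and 119 CPM, with all 7 measured ones at least 1.5-fold higher than in Vehicle, and their part in this was not tested.

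The macrophage gate carried macrophage markers outside the rule. Csf1r, Adgre1, Cd68, Mrc1, Fcgr1, Cd14, Aif1 and Ms4a7 summed to 5177 CPM in AngII_VWR, 6850 CPM in AngII and 5447 CPM in Vehicle. Of 10429 genes measured there, 338 (3.24%) exceeded Vehicle 2-fold or more in AngII_VWR and 193 (1.85%) were as far below it. The median over all genes was 0.15 log2, and with median-of-ratios scaling the split was 241 higher and 287 lower. List medians in this gate are therefore also given relative to all genes. At 1.5-fold 11.4% of genes were higher and 5.7% lower.

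Genes of resident macrophages were lower in AngII_VWR, with 10 of the 20 measured at least 1.5-fold lower, none higher and a median of −0.63, or −0.77 relative to all genes. Retnla (ENSMUSG00000061100, chromosome 16, 48842551 to 48844461), a secreted protein of alternatively activated macrophages, stood at 2792 CPM in Vehicle, 1084 in AngII and 616 CPM in AngII_VWR, 4.53-fold lower (4.45 to 4.62). The eosinophil attractant Ccl24 stood at 1609, 719 and 349 CPM, 4.61-fold lower, and Timd4, a receptor for dying cells, at 158, 51.5 and 56.4 CPM, 2.80-fold lower. Cd163, the haemoglobin scavenger receptor, stood at 721, 389 and 401 CPM. Of the genes named here, Lyve1, a hyaluronan receptor of vessel-associated macrophages, lay nearest to Vehicle, at 1188, 459 and 1033 CPM. After thinning, Retnla was found in 25.7% of macrophage-gate barcodes in Vehicle, 11.01% of those in AngII and 9.21% of those in AngII_VWR, against 2.23, 0.881 and 1.83% in the fibroblast gate. Without thinning the macrophage shares were 50.1% in Vehicle and 19.2% in AngII_VWR, at median depths of 13194.5 and 4899 UMIs.

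Some genes of lipid-handling and recruited cells were higher. Osteopontin (Spp1, ENSMUSG00000029304, chromosome 5, 104435118 to 104441050), a secreted phosphoprotein of macrophages in scarring tissue, stood at 3.09 CPM in Vehicle, 65.2 in AngII and 121 CPM in AngII_VWR, 39.3-fold higher (32.6 to 47.7). It was found in 0.222, 1.62 and 2.91% of thinned macrophage-gate barcodes, so most barcodes had none, and in 0 of 6996 (up to 0.0429%), 0.0927 and 0.554% of the fibroblast gate. Without thinning, the macrophage-gate shares were 1.25% in Vehicle and 6.76% in AngII_VWR. The log2 ratio of Spp1 was 4.90 in this gate, 4.79 in the fibroblast gate and 5.00 in the remaining cells, so it was of like size in all 3. The lipid carriers Fabp5 and Fabp4 stood at 7.79, 57.9 and 101 CPM and at 11.7, 47.3 and 56.2 CPM. The lipid-associated list had 8 of 14 members at least 1.5-fold higher, 1 lower and a median of 0.65, or 0.50 relative to all genes. The sum of the list did not follow, at 17222 CPM in Vehicle, 18009 in AngII and 16072 CPM in AngII_VWR, with its most abundant member Apoe at 13880, 14855 and 12298 CPM, and its UMIs per barcode after thinning had a median of 17, 18 and 16. Thrombospondin 1 (Thbs1) stood at 4.94, 62.5 and 112 CPM, 22.7-fold higher (19.5 to 26.5). Ccr2 (chromosome 9, 124101950 to 124113557), the receptor for Ccl2, stood at 17.1, 167 and 90.2 CPM, 5.28-fold higher than in Vehicle (4.82 to 5.79). Monocyte markers, of which Ccr2 is one, summed to 37.4, 191 and 133 CPM in this gate. Pdpn (podoplanin, 11.03, 55.3 and 53.9 CPM), Sla (16.8, 39.3 and 66.6 CPM), Plekhg2 (21.99, 21.03 and 81.8 CPM) and the transcription factor Runx3 (15.4, 34.0 and 57.3 CPM) completed the genes with the highest ratios.

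Antigen presentation and interleukin 1 stood near Vehicle in the running library. The MHC class II list had 2 of 8 members at least 1.5-fold higher, none lower and a median of 0.07, or −0.07 relative to all genes. Its sum was 9827 CPM in Vehicle, 28828 in AngII and 11514 CPM in AngII_VWR. H2-Ab1 stood at 1309, 4514 and 1517 CPM, the invariant chain Cd74 at 4874, 13478 and 4681 CPM, and the transactivator Ciita at 17.7, 55.9 and 19.8 CPM. Interleukin 1 beta (Il1b) stood at 326 CPM in Vehicle, 1826 in AngII and 363 CPM in AngII_VWR, 1.11-fold higher than in Vehicle (1.08 to 1.14). The chemokine Ccl8 stood at 309, 1658 and 475 CPM. These members lay far nearer to Vehicle than to AngII. Ccl2 (6556, 4283 and 2579 CPM) and Ccl7 (3502, 2585 and 1500.0 CPM) were lower than in Vehicle, and cytokine genes as a list had 8 of 29 higher and 10 lower. The costimulatory gene Cd86 stood at 1861, 2055 and 1205 CPM.

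Other genes with the lowest ratios in the macrophage gate were Tcim (85.2, 25.9 and 10.8 CPM), the phospholipase Pla2g2d (57.5, 18.8 and 9.78 CPM), Spic, a transcription factor of iron-recycling macrophages (51.6, 34.1 and 9.26 CPM), the growth factor Bmp2 (236, 136 and 55.8 CPM), Siglech (69.4, 16.2 and 16.8 CPM) and Cd180, a toll-like receptor homologue (137, 152 and 32.8 CPM). In this gate erythroid markers summed to 3352 CPM in Vehicle, 665 in AngII and 551 CPM in AngII_VWR, and smooth muscle markers to 514, 61.8 and 112 CPM. Fibroblast markers summed to 457, 316 and 811 CPM, and fibrillar collagen genes were at least 1.5-fold higher there in 8 of 16 cases. The part of other cells' RNA in these values was not tested.

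**Figure D3:**
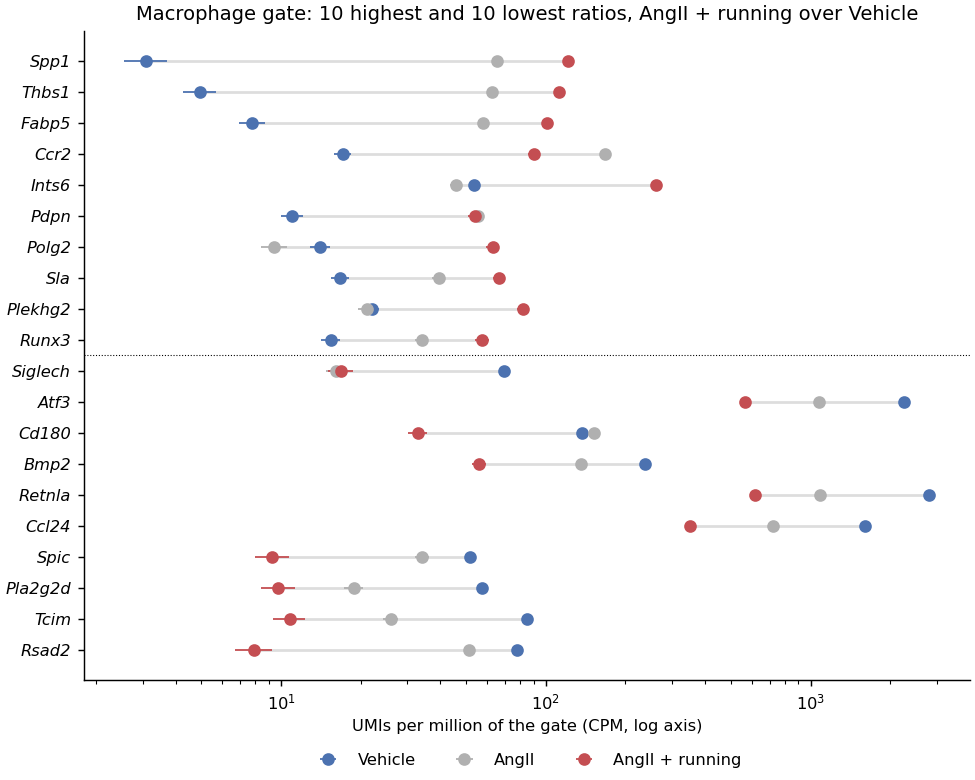
Levels in the macrophage gate (CPM, log axis) of the 10 genes with the highest and the 10 with the lowest ratio of AngII with running over Vehicle, in the 3 libraries, with 95% Poisson intervals. Spp1 stands at 3.09, 65.2 and 121 CPM in Vehicle, AngII and AngII with running, and Retnla at 2792, 1084 and 616 CPM.

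Targets of type I interferon, the antiviral cytokine family, were lower in AngII_VWR in both gates. In the fibroblast gate 13 of 17 measured members were at least 1.5-fold lower and none higher, with a median of −1.02 and a sum of 1005 CPM in Vehicle, 847 in AngII and 541 CPM in AngII_VWR. In the macrophage gate 14 of 18 were lower, with a median of −1.15, or −1.30 relative to all genes, and a sum of 2801, 2185 and 1484 CPM. Rsad2 (viperin, an antiviral enzyme, ENSMUSG00000020641, chromosome 12, 26442746 to 26456452) stood at 77.8, 51.4 and 7.90 CPM in the macrophage gate, 9.85-fold lower (8.36 to 11.7), the lowest ratio among the genes eligible for naming there. Isg15, a ubiquitin-like modifier, stood at 80.0, 57.2 and 22.9 CPM in macrophages and at 78.3, 55.4 and 25.04 CPM in fibroblasts, and Ifit3 at 55.5, 36.3 and 15.3 CPM in fibroblasts. AngII lay between the other two libraries for these genes. Cxcl10, an interferon-induced chemokine, did not share that order in macrophages, at 69.7, 190 and 28.2 CPM. Bst2 differed little, at 128, 127 and 150 CPM in fibroblasts. In the remaining cells the list median was −0.10, and −0.79 without smooth muscle-marker, erythroid-marker and multiple-class barcodes.

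Interferon-induced genes are switched on through the interferon-stimulated response element, whose core is a repeated GAAA. This element, a pair of GAAA runs spaced by 2 bases of any kind, was searched on both strands in the 250 bases before the start of each gene (RefSeq, GRCm38.p6). It was found in 9 of 16 promoters of the list (14 of 20 genes matched), or 56.2%, and in 978 of 32851 promoters in all (2.98%). The promoters of 3 of the genes described above are shown 5′ to 3′ on the strand of the gene, with the matched letters in capitals.
Isg15, chr4:156200819-156201068, minus strand: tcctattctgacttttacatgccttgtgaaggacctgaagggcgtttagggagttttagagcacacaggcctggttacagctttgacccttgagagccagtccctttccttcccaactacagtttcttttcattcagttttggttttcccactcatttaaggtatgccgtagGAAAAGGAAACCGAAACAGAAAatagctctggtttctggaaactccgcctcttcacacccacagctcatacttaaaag
Rsad2, chr12:26456453-26456702, minus strand: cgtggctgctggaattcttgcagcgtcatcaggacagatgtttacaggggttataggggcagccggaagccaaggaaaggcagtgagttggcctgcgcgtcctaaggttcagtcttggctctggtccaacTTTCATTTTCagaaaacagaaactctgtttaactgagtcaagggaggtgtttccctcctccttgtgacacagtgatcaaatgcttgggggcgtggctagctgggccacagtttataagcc
Ifit3, chr19:34583279-34583528, plus strand: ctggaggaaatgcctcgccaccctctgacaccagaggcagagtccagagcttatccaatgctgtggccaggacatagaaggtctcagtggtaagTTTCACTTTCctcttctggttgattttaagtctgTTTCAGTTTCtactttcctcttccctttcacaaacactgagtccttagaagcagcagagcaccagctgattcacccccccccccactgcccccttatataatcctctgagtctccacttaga
Isg15 held 3 overlapping matches on the strand of the gene, and Ifit3 held 2 and Rsad2 held 1, all on the opposite strand. Bst2, which differed little in fibroblasts, also held 2 matches, so a match did not always go with a lower level. Cxcl10, which was lower than in Vehicle in macrophages of the running library, held 1. A match describes the sequence and is not a binding site measured in these cells.

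Immediate early and heat shock genes, which cell stress and tissue digestion also induce, were lower in macrophages of the running library. In the macrophage gate 11 of 21 immediate early genes lay at least 1.5-fold below Vehicle and none above it, with a median of −0.61 (−0.76 relative to all genes). The stress transcription factor Atf3 stood at 2251, 1077 and 565 CPM, 3.98-fold lower in AngII_VWR than in Vehicle, and Klf4 at 1321, 606 and 656 CPM. Of 14 heat shock genes 11 lay below Vehicle, 7 of them at least 1.5-fold, with Hspa1b at 606, 194 and 217 CPM. In the fibroblast gate 9 of 21 immediate early genes were at least 1.5-fold lower and 2 higher. Atf3 stood there at 1551, 1214 and 448 CPM and Klf2 at 1383, 1581 and 615 CPM, while Nr4a2, an orphan nuclear receptor, was higher at 116, 341 and 271 CPM. Heat shock genes of this gate were at least 1.5-fold lower in 1 of 14 cases, though 13 of 14 lay below Vehicle by some amount, with a median of −0.21. Each group was prepared as 1 library, so group and preparation cannot be told apart here.

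Targets of the glucocorticoid receptor included some of the genes that were highest in the running library, though the list as a whole was not. In the fibroblast gate 4 of 13 members were at least 1.5-fold higher and none lower, with a median of 0.04. Zbtb16, a transcription factor that glucocorticoids induce, stood at 233, 291 and 473 CPM, the receptor chaperone Fkbp5 at 165, 195 and 329 CPM, Tsc22d3 (GILZ) at 155, 113 and 345 CPM, and the kinase Sgk1 at 34.4, 55.5 and 80.0 CPM. In the macrophage gate Zbtb16 stood at 113, 122 and 286 CPM and Fkbp5 at 229, 224 and 497 CPM, Tsc22d3 at 509.7, 342 and 631 CPM and Sgk1 at 27.4, 50.1 and 79.1 CPM. These 4 genes stood highest in AngII_VWR in both gates. In the macrophage gate 3 of 12 members of the list were higher and 1 lower, the metallothionein Mt1 at 1787, 1395 and 1044 CPM, with a median of 0.0057 relative to all genes, while the receptor Nr3c1 was lower, at 225, 183 and 164 CPM in fibroblasts. In the remaining cells Fkbp5 stood at 174, 155 and 271 CPM and Zbtb16 at 316, 261 and 296 CPM.

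Circadian clock genes were at least 1.5-fold lower in 6 of 16 cases and higher in 2 in the fibroblast gate, with a median of −0.46. The output factor Dbp stood at 95.5, 133 and 27.6 CPM and Bhlhe40 at 253, 276 and 100.1 CPM, while Npas2, of the activating arm, stood at 35.3, 41.1 and 57.3 CPM. The time of day of collection was not given in the sources used here. Unfolded protein response genes had a median of 0.11 in the fibroblast gate, with 2 of 18 higher and 3 lower. The chaperone Hspa5 stood at 1744, 821 and 1124 CPM and the death-linked factor Ddit3 at 149.7, 82.8 and 85.9 CPM, while Dnajb9 stood at 97.9, 64.4 and 163 CPM.

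**Figure D4:**
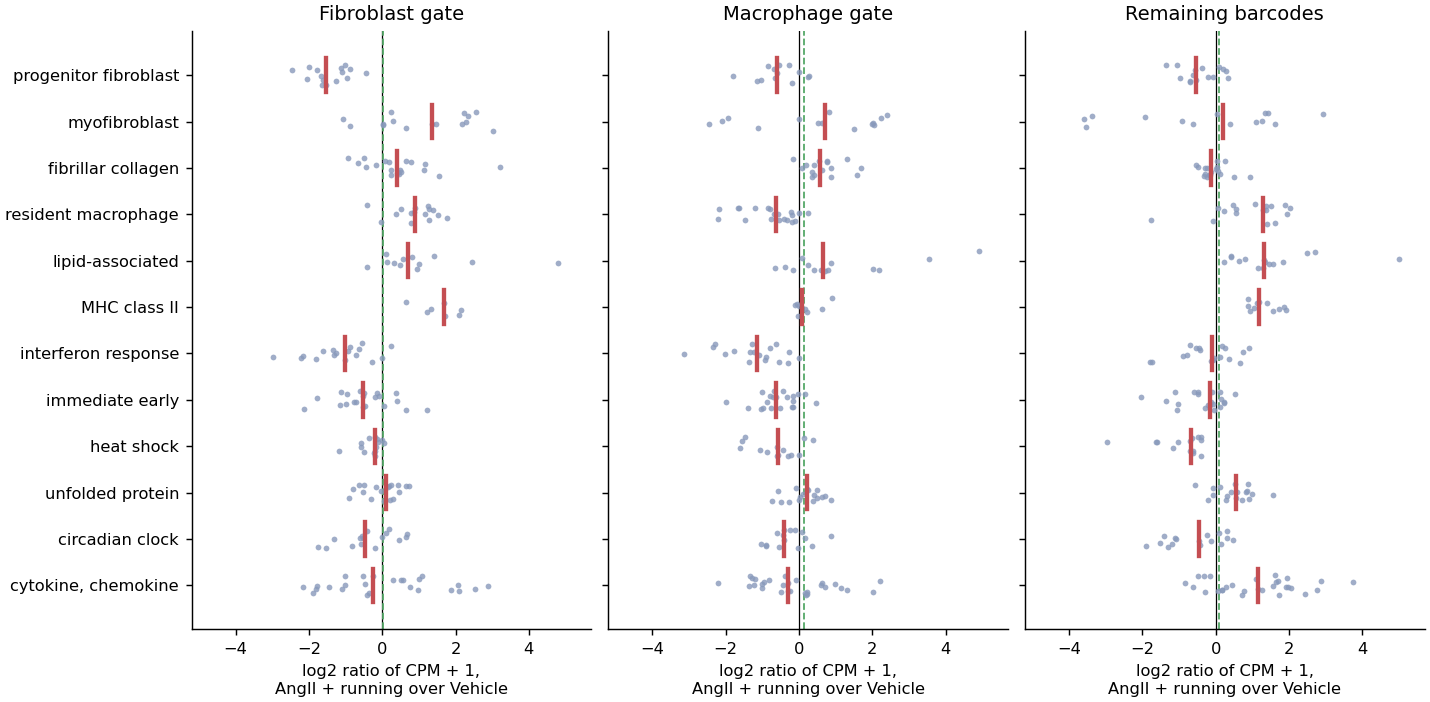
Log2 ratio of AngII with running over Vehicle for the measured members (points) of 12 gene lists in the 3 gates, with the list median (red bar) and the median of all genes (green dashed line). Progenitor genes lie at a median of −1.54 in the fibroblast gate, and interferon genes at −1.02 and −1.15 in the fibroblast and macrophage gates.

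The same lists were counted per barcode after thinning to 1000 UMIs, which left 6996 Vehicle barcodes in the fibroblast gate. Progenitor genes gave a median of 11 UMIs in Vehicle (10th to 90th percentile 4 to 24), 6 in AngII (2 to 15) and 5 in AngII_VWR (2 to 13). Myofibroblast genes gave 3 (0 to 10), 7 (1 to 17) and 5 (1 to 14). The ranges overlapped widely for both lists, and the running library lay nearer to AngII for the first and between the others for the second. In the macrophage gate, resident genes gave 24 (13 to 39), 18 (5 to 31) and 16 (5 to 28). MHC class II genes gave 3 (0 to 35), 23 (1 to 71) and 3 (0 to 39), so most macrophages of the running and saline libraries carried few of these molecules. No interferon-list UMI was found in 20.4% of macrophage-gate barcodes of Vehicle, 26.7% of AngII and 35.7% of AngII_VWR.

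**Figure D5:**
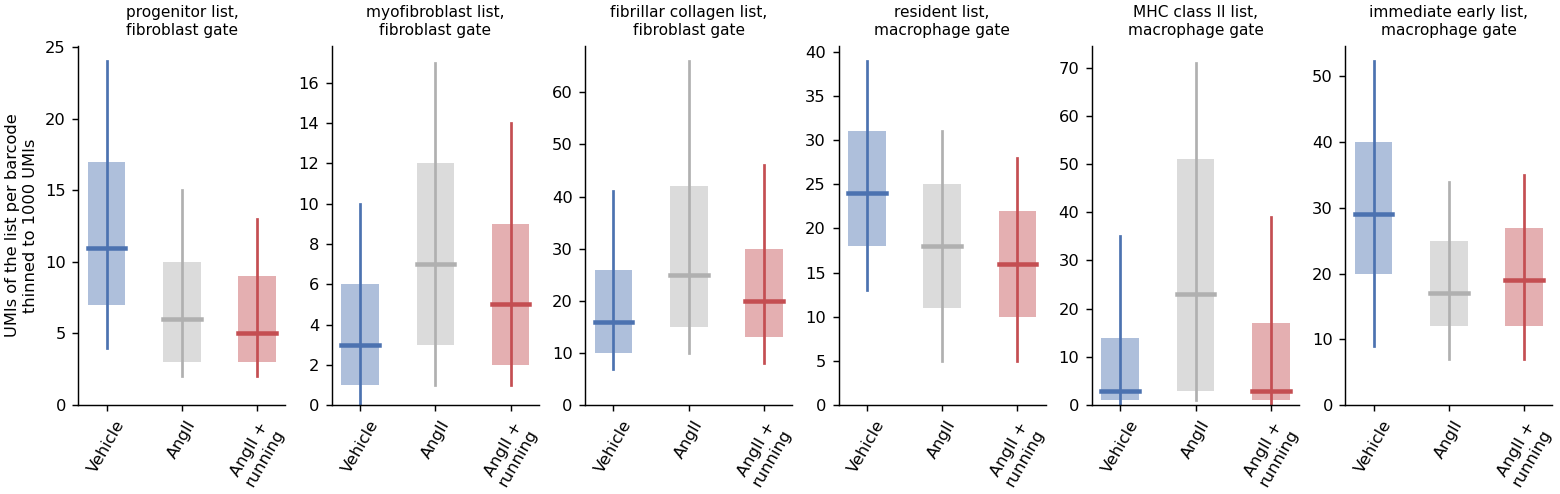
UMIs of a gene list per barcode thinned to 1000 UMIs, as the median, the box of the quartiles and a line from the 10th to the 90th percentile, in Vehicle, AngII and AngII with running. Progenitor genes stand at medians of 11, 6 and 5 in the fibroblast gate, and MHC class II genes at 3, 23 and 3 in the macrophage gate.

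In the remaining cells the differences were larger, and the makeup of the gate differed with them. Of 11985 genes measured, 1092 (9.11%) exceeded Vehicle 2-fold or more in AngII_VWR and 742 (6.19%) were as far below it. Without smooth muscle-marker, erythroid-marker and multiple-class barcodes, 525 of 12085 were higher and 825 lower by that factor. Smooth muscle markers summed to 16721 CPM in Vehicle, 1344 in AngII and 1545 CPM in AngII_VWR, with 8 of 8 lower, erythroid markers to 59302, 14452 and 8159 CPM, and neutrophil markers to 298, 153 and 1001 CPM. The lowest ratios included genes of smooth muscle and pericytes. Mylk4, a myosin light chain kinase, stood at 101 CPM in Vehicle, 2.81 in AngII and 0.598 CPM in AngII_VWR, and Rgs5, a pericyte and smooth muscle regulator of G protein signalling, at 1384, 58.7 and 63.5 CPM. Optc (72.1, 2.36 and 2.39 CPM), the netrin receptor Unc5c (93.05, 5.54 and 4.38 CPM), Fbxl22 (81.3, 6.17 and 4.08 CPM) and Sh3bgr (131, 5.90 and 8.07 CPM) followed. The highest included genes of myeloid cells. Ifitm1 (chromosome 7, 140967221 to 140969825) stood at 7.28, 23.8 and 285 CPM, 39.1-fold higher than in Vehicle (34.3 to 44.7), the lectins Clec4n and Clec4d at 2.30, 20.3 and 107 CPM and at 7.05, 22.7 and 116 CPM, and the neutrophil gelatinase Mmp9 at 3.16, 4.54 and 72.2 CPM. Acod1, which makes itaconate, stood at 4.09, 29.3 and 74.6 CPM, and Spp1 at 3.25, 42.0 and 135 CPM.

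Inflammatory lists were higher in the remaining cells, where the background at 1.5-fold was 18.4% higher and 12.4% lower. Of 29 cytokine genes 18 were higher and 2 lower, at a median of 1.15, and Il1b stood at 377 CPM in Vehicle, 1520 in AngII and 1115 CPM in AngII_VWR. All 11 MHC class II genes were higher, at a median of 1.19. Without smooth muscle-marker, erythroid-marker and multiple-class barcodes these medians were 0.71 and 0.40. Macrophage markers outside the rule summed to 185, 597 and 754 CPM in the remaining cells, and their part in these medians was not tested. Heat shock genes were below Vehicle in 14 of 14 cases, at least 1.5-fold in 10 of them. Their largest difference was in Hspb1, which smooth muscle also expresses, at 2854, 363 and 367 CPM, and without the same barcodes the list median went from −0.67 to −0.23.

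T-marker barcodes numbered 108 in AngII_VWR and 172 in Vehicle, a ratio of shares of 0.458 (0.356 to 0.585). Genes of immature T cells separated the libraries. Of 7 such genes, chosen after their values were seen (Rag1, Rag2, Dntt, Ptcra, Arpp21, Ccr9 and Cd8b1, the last also of mature CD8 T cells), UMIs of at least 2 were found in 110 of 172 Vehicle barcodes (64.0%), 2 of 59 in AngII and 0 of 108 in AngII_VWR, which allows up to 2.78%. The recombinase gene Rag1 gave 320 UMIs in Vehicle, 1 in AngII and none in AngII_VWR. Arpp21 stood at 693 CPM of this class in Vehicle, and the absence of UMIs in AngII_VWR made it at least 85.7-fold lower against a floor of 3 counts over the group. Sox4 and Ccr9 were 59.2-fold and 55.9-fold lower on the same floor, with intervals that began at 48.0-fold and 45.3-fold lower. Without these barcodes the ratio of T-marker shares was 1.27 (0.921 to 1.76), from 108 and 62 barcodes. Immature T cells develop in the thymus, which lies near the thoracic aorta. Whether thymus tissue was part of the Vehicle preparation was not tested, so the lower T-marker share and these folds cannot be told apart from a difference in the tissue taken.

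Among T-marker barcodes, interleukin 17A (Il17a), a cytokine of type 17 and gamma-delta T cells, stood at 22.01 CPM in Vehicle, 287 in AngII and 450.0 CPM in AngII_VWR, 20.4-fold higher than in Vehicle (13.7 to 31.5). It rested on 29 UMIs in 6 Vehicle barcodes and 167 UMIs in 26 barcodes of AngII_VWR. The chemokine Xcl1 stood at 14.4, 160.2 and 205 CPM and the keratin Krt83 at 14.4, 93.6 and 169.7 CPM. Without the barcodes with immature T cell genes, Il17a stood at 59.0 CPM in Vehicle, 305 in AngII and 450.0 CPM in AngII_VWR. Xcl1 then stood at 38.6, 170.1 and 205 CPM and Krt83 at 36.6, 99.4 and 169.7 CPM. The order of the libraries was the same, but the Vehicle levels were higher, so the 20.4-fold ratio of Il17a does not hold without those barcodes. The sum of fibroblast markers among these barcodes was 780.1 CPM in Vehicle and 1032 CPM in AngII_VWR, and that of smooth muscle markers 219 and 72.7 CPM.

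The study's title concerns nerves and immune cells, so guidance and neurotrophic genes and the receptors of the hormone were examined. In the fibroblast gate 5 of 20 nerve-signal genes lay at least 1.5-fold above Vehicle and 7 below it, with a median of −0.22. The enkephalin precursor Penk stood at 139, 68.0 and 38.7 CPM, and the netrin Ntn4 at 231, 124 and 127 CPM. The repellent Slit2 was higher, at 86.7, 189.7 and 185 CPM, as was neurotrophin 3 (Ntf3), at 30.6, 53.4 and 62.8 CPM. In the remaining cells, where smooth muscle-marker barcodes were fewer, 13 of 25 were lower and 3 higher. The list median there was −0.61, and it was −0.62 without smooth muscle-marker, erythroid-marker and multiple-class barcodes. The neurotrophin 3 receptor Ntrk3 stood there at 172, 114 and 40.0 CPM and Ntf3 at 58.4, 24.4 and 16.4 CPM. Ntf3 was thus higher than in Vehicle in the fibroblast gate and lower in the remaining cells. Of 15 receptor and enzyme genes of angiotensin and adrenaline, 3 were measured in the fibroblast gate. The angiotensin receptor Agtr1a stood at 7.38, 5.33 and 3.69 CPM, 2.00-fold lower (1.73 to 2.32), the adrenergic receptor Adra1b at 11.8, 3.62 and 3.36 CPM, and angiotensin converting enzyme (Ace) at 192, 184 and 155 CPM.

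Growth factor genes of the fibroblast gate were at least 1.5-fold higher in 7 of 19 cases and lower in 1. Insulin-like growth factor 1 (Igf1) stood at 181, 607 and 431 CPM, Gas6, the ligand of the Axl receptor, at 450.4, 869.9 and 815 CPM, and the PDGF receptor Pdgfrb at 82.1, 110.0 and 146 CPM. Axl itself was lower, at 443, 219.9 and 266 CPM. The NADPH oxidase Nox4, a source of hydrogen peroxide in fibroblasts, was highest in the running library, at 269, 488 and 700.4 CPM. Of the adhesion genes, Cd34, a marker of the progenitor-like state, stood at 949.8, 448 and 396 CPM, and Vcam1 at 63.9, 256 and 155 CPM.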

How the data were processed

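Single-cell 3′ RNA libraries of digested adventitia were made on the 10x platform, per the labels' protocols. The authors deposited, for each library, a matrix of raw UMI counts, with a row for each gene. Per the file headers, AngII_VWR was counted with Cell Ranger 7.1.0 and the other libraries with 7.0.1. The build was mm10, per the submitters' processing notes. Barcodes under 500 UMIs or 300 genes or over 10% mitochondrial UMIs were left out (1232 in Vehicle, 616 in AngII, 614 in AngII_VWR).

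UMIs were summed over the barcodes of a gate and scaled to 1000000. Shares carry exact Clopper-Pearson intervals, CPM exact Poisson intervals and ratios exact conditional intervals, all at 95% and for counting error only. The calculations were tested on simulated data. Doublets were not removed, since Scrublet's own threshold called 301 barcodes in Vehicle and 0 in AngII_VWR, and their removal by score was an alternative. Thinning drew 1000 UMIs from each barcode and left out shallower ones.

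Named genes had at least 50 CPM and 50 UMIs in the higher library and at least 0.5 times the CPM of the other barcodes there. In the fibroblast and macrophage gates these were the 10 highest and 10 lowest ratios, in the remaining cells the 6 highest and 6 lowest without the last condition, and in the T-marker class the 3 highest and 3 lowest. Up to 4 members of each list with at least 50 CPM, and a set of key genes, were also named, and a few further members were named for their levels after these were seen. Mitochondrial, ribosomal, haemoglobin, immunoglobulin and predicted genes were left out. Some list members are not reported here by name. A monocyte-marker class was not described, since 11.8% of Vehicle fibroblast-gate barcodes also passed it. The members, gene lists and marker sets were chosen with earlier results of these data known. The tools were scipy 1.17.1, scanpy 1.11.5, numpy 2.4.6 and pandas 2.3.3 under Python 3.11.15.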

Additional observations from a re-analysis of the deposited data

Results flagged for a closer look

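The following results had opposite directions in the fibroblast and macrophage gates, each at least 1.5-fold. The difference between the gates was not tested, since each gate came from 1 library per group. Basp1 had a log2 ratio of −1.89 in the fibroblast gate and 0.80 in the macrophage gate, a difference of −2.69. Pdpn stood at −0.70 and 2.19, a difference of −2.89. Tcim stood at 1.16 and −2.87, a difference of 4.03. The resident macrophage list had a median of 0.89 in the fibroblast gate and −0.63 in the macrophage gate, a difference of 1.51, beside macrophage markers that summed to 40.5 CPM in the Vehicle fibroblast gate and 119 CPM in that of AngII_VWR.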

How the results depend on the processing

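Of 95 alternatives to the 9 main counts and shares, 68 gave a like value and 27 moved it. Only the shares could be scored as reversed, and none was. Gene counts were scored by size alone, and their balance could turn. With median-of-ratios scaling the macrophage gate had 241 higher and 287 lower genes. A 1.5-fold limit gave 1061 higher and 694 lower genes in the fibroblast gate, 1194 and 594 in the macrophage gate and 2200 and 1484 in the remaining cells. A pseudocount of 5 CPM gave 255 and 149, 170 and 119, and 723 higher in the remaining cells. Limits doubled to 2 times gave a fibroblast ratio of shares of 1.60, a remaining one of 0.709, and 466 higher and 372 lower genes in the remaining cells, with Postn at 0.27 log2 there. Halved limits gave ratios of 1.13 and 0.393 and 1313 lower genes in the remaining cells, and in the macrophage gate a progenitor list median of 0.015 and Cd55 at 0.11 log2. The remaining ratio was 0.402 with at least 2000 UMIs and 1000 genes, a filter that kept 82.8% of Vehicle and 80.0% of AngII_VWR barcodes. The macrophage ratio was 0.844 with at most 5% mitochondrial UMIs, 0.980 with barcodes past both limits counted in it and 0.964 without the barcodes that Scrublet scored highest (11.1 and 15.2%). Without those barcodes 515 genes were higher in the macrophage gate, where the progenitor list stood at 0.27, Cd55 at 0.11 and Tnc at 0.028 log2. Thinning gave 653 higher genes in the macrophage gate, and 1390 higher and 1491 lower in the remaining cells. Without a minimum level 685 genes were higher in the fibroblast gate, and the angiotensin and adrenergic list median was 0.012. Leaving out smooth muscle-marker, erythroid-marker and multiple-class barcodes, chosen after seeing the data, gave 525 higher and 825 lower genes in the remaining cells. The T-marker ratio without immature T cell genes was 1.27. The cause was not tested. Of 1302 alternatives for list medians 58 changed the sign, in 37 of 118 medians, 3 of them where the median was past 1.5-fold. Of 1580 for named genes 46 changed the sign, 4 of them where the ratio was past 1.5-fold. No paired analysis was possible because each group is 1 library. Depth limits the shares of barcodes with a UMI, and no alternative stands in for replicate animals.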

Other observations

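In the fibroblast gate the lipid carrier Apoe stood at 531 CPM in Vehicle, 1331 in AngII and 1026 CPM in AngII_VWR, and the cholesterol exporter Abca1 at 74.3, 75.2 and 111 CPM. In the macrophage gate 3 of 18 lysosomal genes were at least 1.5-fold higher and none lower, at a median of −0.02 relative to all genes. Of these, the saposin precursor Psap stood at 792, 1085 and 1250.5 CPM and the protease cathepsin D (Ctsd) at 470, 442 and 712 CPM. The adhesion molecule Alcam stood at 107, 191 and 269 CPM in macrophages. The nuclear-encoded respiratory chain list had 1 of 19 members at least 1.5-fold lower and none higher in the fibroblast gate. In the macrophage gate it had 1 of 19 higher and none lower. Of 17 glycolysis and hypoxia genes, 1 was at least 1.5-fold higher and 3 lower in the fibroblast gate, where Aldoa and Gapdh stood at 312, 248 and 182 CPM and at 373, 359 and 239.7 CPM, and 4 were higher and none lower in the macrophage gate.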
